A study of Homo sapiens with 18 samples.

Results

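Extracellular matrix genes are described here as a set of 33 genes, of 20136 protein-coding genes annotated, by the accessibility of the chromatin in and around them in 6 ovarian cancer cell lines. The set holds collagens, laminin chains, matrix glycoproteins and proteoglycans, fibrillins, the cross-linking lysyl oxidases, and the genes CCDC80 and BCAM. Its members share a function, and they were chosen with earlier results of these lines known. Accessibility was measured in windows of about 1 kb of the genome (build hg19, GRCh37), and a window was taken for a gene where it overlapped the gene's GENCODE span extended by 10000 bp on each side. This gave 258 of the 89428 windows of the deposited table, in 30 of the 33 genes, while COL3A1, DCN and POSTN had no window in the table. The table holds only windows above 2 FPKM in at least 2 of the 18 libraries, so for a gene without a window no more is known than that its signal stayed below that level in all or all but 1 library.

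The extracellular matrix is the network of secreted proteins that surrounds cells. Fibrillar collagens give it tensile strength, laminins and network collagens form the basement membrane beneath epithelial cells, and glycoproteins such as fibronectin link it to receptors on the cell surface. Ovarian cancers spread over the lining of the peritoneal cavity, which is rich in matrix, and matrix gene expression has long been studied in drug-resistant ovarian cancer. CCDC80 encodes a secreted glycoprotein that binds the matrix. BCAM encodes a cell-surface receptor for laminin that carries the alpha chain made by LAMA5. Both were picked by the study from RNA of these same lines, so neither is an independent choice for a comparison of them.

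The libraries were made by ATAC-seq, in which the Tn5 transposase inserts sequencing adapters into open chromatin. There were 3 libraries for each of 6 lines, which make up 3 pairs, each of a line sensitive to platinum and a resistant counterpart. A2780, labelled as an endometrial/ovarian cancer line and as sensitive, was paired with CP70, a resistant line selected from it in culture. PEA1 (sensitive) and PEA2 (resistant) came from ascites of the same patient with high-grade serous ovarian cancer, before platinum treatment and after relapse. PEO1 (sensitive) and PEO4 (resistant) came from another patient with that cancer, both after platinum treatment had begun, before and after resistance developed clinically. All lines were grown in RPMI medium with glutamine and fetal bovine serum, and the labels name no drug given to the cells of these libraries. Each pair is 1 derivation, so within a pair resistance cannot be told apart from any other difference between its 2 lines. Nothing states that the libraries of a line came from separate cultures, so the p-values measure only the spread between these libraries, which may be technical.

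The library totals implied by the smallest step between values ran from 8963079 to 60435027 reads, lowest in PEO1 and highest in A2780. The windows of the table held 8.38% to 10.0% of the reads of the A2780 libraries and 38.9% to 40.8% of those of PEO1, the extremes of the 6 lines. FPKM values are scaled to the whole library, so levels of PEO1 and PEO4 stand high and those of A2780 low at most windows. Promoters of 8 epithelial markers were all in the table, and above 1 FPKM numbered 8 in PEA2, PEO1 and PEO4, 7 in CP70, 6 in PEA1 and 1 in A2780, where their summed level was 5.93 to 7.28 FPKM against 46.0 to 53.6 FPKM in PEO1 and PEO4. Of 6 mesenchymal markers 5 had a promoter window, with summed levels of 18.6 to 27.9 FPKM in PEA1, 10.1 to 12.9 FPKM in PEA2 and 16.5 to 20.7 FPKM in PEO1 and PEO4. None of the 4 leukocyte markers had a promoter window, and of 3 endothelial markers 1 did (KDR).

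Of the 258 windows, 51 were promoter windows, which overlapped the stretch from 1000 bp upstream to 100 bp downstream of a transcript start of a member. Another 204 were distal windows, 141 in introns, 14 in exons and 49 outside the canonical transcript, and 3 lay only at promoters of other genes. The promoter windows had a median GC content of 56.9% and the distal windows one of 47.6%. Promoter windows were present for 26 genes and distal windows for 28. LAMA5 held the most windows, with 48 in all and 44 of them distal, followed by LAMA3 with 20 distal windows and COL4A2 with 17. COL4A1 and COL4A2, which lie head to head and are transcribed from a shared promoter, had 2 windows in common.

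The promoters of CCDC80 and BCAM, of COL6A2 and SPARC, whose promoter windows changed most, and of the head-to-head pair COL4A1 and COL4A2 are shown because the results turn on them. Each is the GRCh37 sequence (GENCODE canonical starts), read 5′ to 3′ on the strand of the gene and ending at or upstream of the start of its transcript. Capitals mark the GC box GGGCGG, on either strand, and the TATA box TATAAA. The stretches are chr19:45312128-45312327 (plus strand) for BCAM, chr3:112360148-112360347 (minus) for CCDC80, chr21:47517826-47518025 (plus) for COL6A2, chr5:151066477-151066676 (minus) for SPARC and chr13:110959505-110959630 (plus) between the starts of COL4A1 and COL4A2.
BCAM promoter: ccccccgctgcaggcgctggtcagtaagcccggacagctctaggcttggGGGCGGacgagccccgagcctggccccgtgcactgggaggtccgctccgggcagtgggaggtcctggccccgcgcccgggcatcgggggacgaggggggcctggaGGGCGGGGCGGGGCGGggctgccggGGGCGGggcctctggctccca
CCDC80 promoter: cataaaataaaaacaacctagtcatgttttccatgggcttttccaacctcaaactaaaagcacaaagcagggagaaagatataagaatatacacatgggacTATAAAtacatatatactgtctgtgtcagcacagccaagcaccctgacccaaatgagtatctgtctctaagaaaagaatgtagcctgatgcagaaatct
COL6A2 promoter: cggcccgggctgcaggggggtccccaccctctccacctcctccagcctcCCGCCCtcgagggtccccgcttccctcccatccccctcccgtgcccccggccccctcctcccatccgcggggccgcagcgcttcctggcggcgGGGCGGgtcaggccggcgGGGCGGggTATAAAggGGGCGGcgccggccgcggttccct
SPARC promoter: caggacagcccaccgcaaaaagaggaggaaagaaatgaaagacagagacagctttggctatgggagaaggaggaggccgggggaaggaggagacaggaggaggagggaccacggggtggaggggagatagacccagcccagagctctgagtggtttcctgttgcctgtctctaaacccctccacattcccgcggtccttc
COL4A1 and COL4A2 shared promoter: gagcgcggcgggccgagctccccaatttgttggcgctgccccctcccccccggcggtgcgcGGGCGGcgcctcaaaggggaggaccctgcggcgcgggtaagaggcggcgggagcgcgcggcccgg
The BCAM stretch held 5 GC boxes and 79.5% GC, and the COL6A2 stretch 4 GC boxes, 1 TATA box and 80.0% GC. The stretch between COL4A1 and COL4A2 held 1 GC box and 80.2% GC. The CCDC80 stretch held no GC box, 1 TATA box and 37.5% GC, and the SPARC stretch neither motif and 58.5% GC. Counted over whole windows on both strands, GGGCGG was in 38 of the 51 promoter windows of the members (74.5%) and in 80.1% of all promoter windows of the table. TATAAA was in 10 of the 51 (19.6%) and in 24.2% of all. A match is a description of the letters and not a site.

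The distal windows shown next changed most in the patient-derived pairs and held the letters TGANTCA, the motif bound by AP-1 factors, on either strand. Of the 204 distal windows 96 held it (47.1%), against 46.8% of all windows of the table that are no promoter windows. It was in 9 of the 19 distal windows higher in PEA2 (47.4%), 1 of the 5 lower in PEA2, 0 of the 4 higher in PEO4 and 5 of the 9 lower in PEO4 (55.6%). Each stretch is read from GRCh37 around the match, which is in capitals, read on the minus strand, the strand of these genes. They are chr5:127772690-127772790 (FBN2), chr6:75829500-75829600 (COL12A1), chr1:103572148-103572248 (COL11A1), chr7:107580022-107580122 (LAMB1), chr15:48752388-48752488 (FBN1) and chr5:127968112-127968212 (FBN2 again).
FBN2 window, higher in PEA2: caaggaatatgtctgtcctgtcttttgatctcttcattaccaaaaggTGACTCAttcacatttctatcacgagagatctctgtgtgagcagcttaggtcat
COL12A1 window, higher in PEA2: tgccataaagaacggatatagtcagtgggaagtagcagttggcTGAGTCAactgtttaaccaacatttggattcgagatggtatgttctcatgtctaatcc
COL11A1 window, lower in PEA2: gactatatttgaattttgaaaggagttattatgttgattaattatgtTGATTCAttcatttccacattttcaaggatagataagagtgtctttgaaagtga
LAMB1 window, lower in PEO4: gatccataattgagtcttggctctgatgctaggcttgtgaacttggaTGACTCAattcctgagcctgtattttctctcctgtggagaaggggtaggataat
FBN1 window, lower in PEO4: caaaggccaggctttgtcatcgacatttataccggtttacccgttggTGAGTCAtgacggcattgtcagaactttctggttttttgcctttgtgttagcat
FBN2 window, lower in PEO4: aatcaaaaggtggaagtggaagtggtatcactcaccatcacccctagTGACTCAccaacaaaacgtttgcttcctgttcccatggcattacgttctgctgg
TEAD (GGAATG), NFI half-site (TTGGCA) and E-box (CAGGTG) letters were searched in the same way and stood in 50.5%, 40.7% and 61.8% of the members' distal windows, against 49.5%, 45.1% and 63.3% of all windows that are no promoter windows.

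The first question was how far the matrix genes changed between the lines of each pair. In the patient-derived pairs single distal elements of laminin, fibrillin and collagen genes changed by more than 4-fold, while in the A2780 pair none of the member windows tested did. The shares of member windows called, given below, were near those of all windows tested in each pair. The contrast between the pairs is therefore not particular to the matrix genes. A window was called where the log2 fold change (log2FC, resistant against sensitive, on log2(FPKM + 0.1)) exceeded 2 in size and the Benjamini-Hochberg adjusted p of limma was below 0.001. The table itself keeps only windows above 2 FPKM in at least 2 libraries, so a window open in 1 line alone is in it through that line. In bulk libraries a smaller share of cells with an open window and a less open window in each cell cannot be told apart.

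In PEA2, 20 of 205 windows tested were higher (9.76%) and 5 were lower (2.44%), where 11.2% and 1.42% of all 66103 windows tested were. The 20 lay in LAMA3 (8), FN1 (4), LAMB3 (3), FBN2 (2), SPARC, COL12A1 and COL4A2, and the 5 in LOXL2 (2), COL4A2 (2) and COL11A1. In PEO4, 5 of 201 windows were higher (2.49%) and 9 lower (4.48%), against 2.72% and 5.78% of all 77654 windows. The 5 lay in COL6A2 (2), LAMA5 (2) and LAMA4, and the 9 in FBN1 (4), COL8A1 (2), LAMB1, FBN2 and COL4A2. The libraries of the 2 lines did not overlap at any of these 25 and 14 windows. A call at these thresholds makes that likely, so it adds no support of its own. In CP70, limma called 0 of 104 windows, with 0.428% of all 37128 windows higher and 0.369% lower. At 75 of the 104 the unadjusted p of limma was under 0.05. That share was not counted over all windows, whose median log2FC was 0.59 against 0.65 for the members.

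Only 1 of the 25 windows called in the PEA pair and 1 of the 14 called in the PEO pair were promoter windows, those of SPARC and COL6A2, among 46 and 50 promoter windows tested. The median log2FC of the members' windows was 0.65 in CP70, 0.85 in PEA2 and -0.28 in PEO4, and over all windows tested it was 0.59, 0.31 and -0.30. Over all genes tested the medians were 0.59, -0.20 and -0.04 at promoter windows and 0.62, 0.26 and -0.25 at distal windows. Median-centred values, given below, set the median of every library to the same level, separately for windows, for promoter values of genes and for distal values of genes, so that the shift differs between these 3 kinds of value. The balance of calls depended on this choice: with median centring of each library 10 windows were higher and 9 lower in PEA2, and 11 were higher and 5 lower in PEO4. With quantile normalization these counts were 9 and 9 in PEA2 and 11 and 5 in PEO4, and after removal of what each window shared with its 5 Mb surroundings 3 and 5 in PEA2 and 3 and 1 in PEO4. That removal took 1 median over windows of all kinds in the 5 Mb, also for promoter values of genes. A promoter value without the 5 Mb thus also carries any difference between promoter and other windows.

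Summed up by gene, as the mean FPKM of all promoter or all distal windows, a gene was called at a log2FC above 1 in size and an adjusted p below 0.05. At promoter windows 2 of 20 genes were higher in CP70 (10%) and 0 lower, against 7.28% and 0.397% of all genes tested. In PEA2 4 of 24 were higher (16.7%) and 2 lower (8.33%), against 7.44% and 11.7%. In PEO4 3 of 25 were higher and 3 lower (12% each), against 4.8% and 7.45%. At distal windows limma called 0 of 9 genes in CP70, where 9.77% of all genes were higher and 0.488% lower. For 7 of the 9 the unadjusted p of limma was under 0.05. That share was not counted over all genes, whose median log2FC was 0.62 against 0.58 for the members. In PEA2 6 of 19 genes were higher (31.6%) and 3 lower (15.8%) at distal windows, against 23.3% and 8.43% of all genes. In PEO4 4 of 25 were higher (16%) and 7 lower (28%), against 6.25% and 16.8%.

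**Figure D1:**
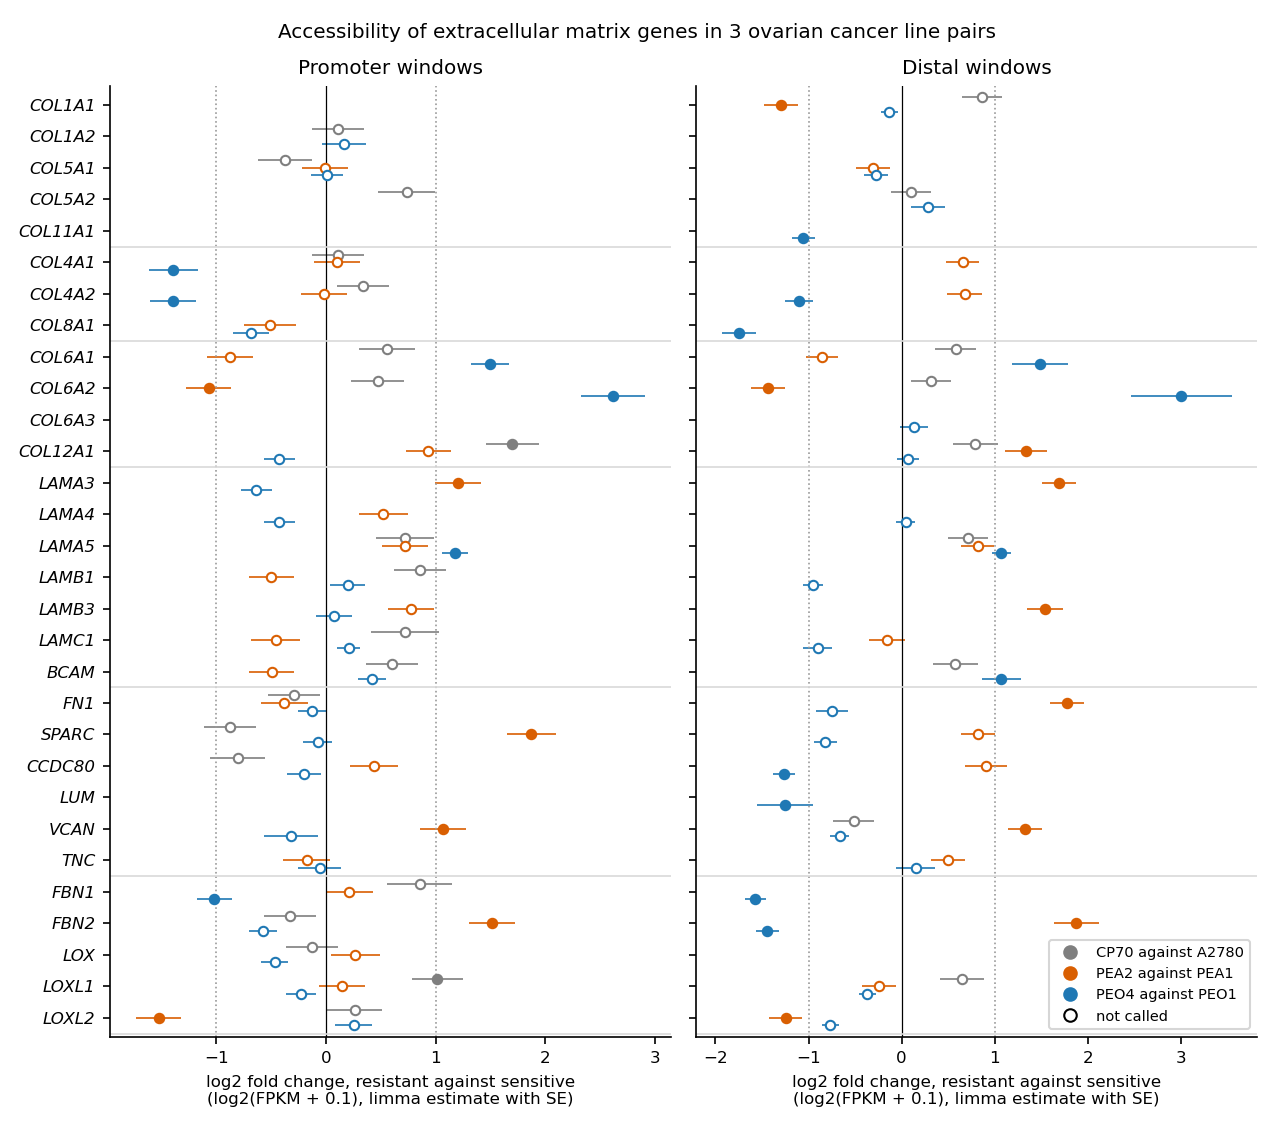
The log2FC of each member (resistant against sensitive line, limma estimate with its SE) is plotted on the x axis for promoter windows at the left and distal windows at the right, 1 row per gene ordered by role, with grey for CP70 against A2780, orange for PEA2 against PEA1 and blue for PEO4 against PEO1. Filled points were called, and the furthest to the right is COL6A2 in PEO4, at 2.62 for promoter and 3.0 for distal windows.

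CCDC80 (chr3:112315644-112368377, minus strand) had 1 promoter window and 5 distal windows. Its distal accessibility fell in PEO4 while its promoter differed little there, and its promoter level was lower in CP70 than in A2780. Promoter values were 2.56, 3.56 and 2.41 FPKM in A2780, and 2.42, 1.38 and 1.13 FPKM in CP70. The groups overlapped by 1 CP70 library, which was just above the lowest A2780 library. The log2FC was -0.81 (SE 0.252, 95% interval -1.30 to -0.31, limma adjusted p = 7.71e-03), short of the call, and -1.39 when median-centred, which was called.

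In the PEA pair the CCDC80 promoter had 1.31, 1.28 and 1.06 FPKM in PEA1 and 1.98, 1.45 and 1.64 FPKM in PEA2, a log2FC of 0.44 (limma adjusted p = 0.0815). It had 3.64, 3.75 and 3.79 FPKM in PEO1 and 3.14, 3.02 and 3.59 FPKM in PEO4, a log2FC of -0.20 (limma adjusted p = 0.285). Neither was called, although in both pairs the libraries of the lines did not overlap. At the 5 distal windows together CCDC80 had 4.13, 4.10 and 3.79 FPKM in PEO1 and 1.47, 1.53 and 1.87 FPKM in PEO4. Every PEO4 library was below every PEO1 library, with a log2FC of -1.26 (SE 0.118, limma adjusted p = 2.10e-05) and a median-centred value of -0.998. That value and the one without the surrounding 5 Mb, -0.77, were under the size required, so the call was lost with either. The same windows had a log2FC of 0.91 in PEA2 (limma adjusted p = 1.56e-03), under the size required.

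The distal windows of CCDC80 did not share 1 size of change. The window at chr3:112372200-112373200, upstream of the canonical start, had 8.90, 9.34 and 7.25 FPKM in PEO1 and 1.80, 1.63 and 2.94 FPKM in PEO4. It had 0.705, 0.872 and 0.384 FPKM in PEA1 and 2.64, 2.02 and 2.35 FPKM in PEA2. PEO1 stood far above all other lines there, the libraries of PEO4 and PEA2 overlapped, and A2780 and CP70 were at or below 0.546 FPKM. Its log2FC was -1.99 in PEO4 (limma adjusted p = 3.28e-12) and 1.75 in PEA2 (limma adjusted p = 1.64e-10), and the change in the PEA pair exceeded that in the PEO pair by 3.73 (SE 0.331, limma adjusted p = 1.86e-13). The other 4 distal windows had log2FC of -1.31 to -0.61 in PEO4.

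BCAM (chr19:45312328-45324678, plus strand) had 3 promoter windows and 1 distal window. Its promoter had the highest FPKM in the PEO lines and was not called in any pair, and its distal window rose in PEO4. Divided by the median window of its library, the promoter level was 3.73 in PEO4, 2.40 in PEA1 and 2.20 in PEO1. The other lines had 2.16 (CP70), 1.69 (A2780) and 1.15 (PEA2). Promoter values were 6.37, 7.56 and 5.05 FPKM in PEO1 and 8.47, 8.86 and 7.90 FPKM in PEO4. All 3 PEO4 libraries were above all PEO1 libraries, with a log2FC of 0.42 (SE 0.126, limma adjusted p = 3.55e-03). The distal window had 1.11, 1.22 and 0.669 FPKM in PEO1 and 1.98, 2.16 and 2.34 FPKM in PEO4, again with no overlap, and a log2FC of 1.07 (limma adjusted p = 1.58e-03, median-centred 1.33). Without PEO1 replicate 3 this value was 0.83, and without the surrounding 5 Mb it was also 0.83, so the call was lost with either.

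In the PEA pair the BCAM promoter had 2.91, 3.33 and 2.45 FPKM in PEA1 and 2.05, 1.93 and 2.06 FPKM in PEA2. PEA2 was below PEA1 in every library, with a log2FC of -0.49 (limma adjusted p = 0.0337), but removal of the 5 Mb surroundings, which shifted by -1.02, turned the value to 0.53. In the A2780 pair the values were 1.40, 1.11 and 0.981 FPKM in A2780 and 1.74, 1.94 and 1.75 FPKM in CP70, a log2FC of 0.61 (limma adjusted p = 0.0281) that was 0.02 when median-centred. Within the promoter the window at chr19:45311400-45312400 reached 13.5 to 14.9 FPKM in PEO4, and its change differed between the PEA and PEO pairs by -1.28 (limma adjusted p = 9.77e-06).

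**Figure D2:**
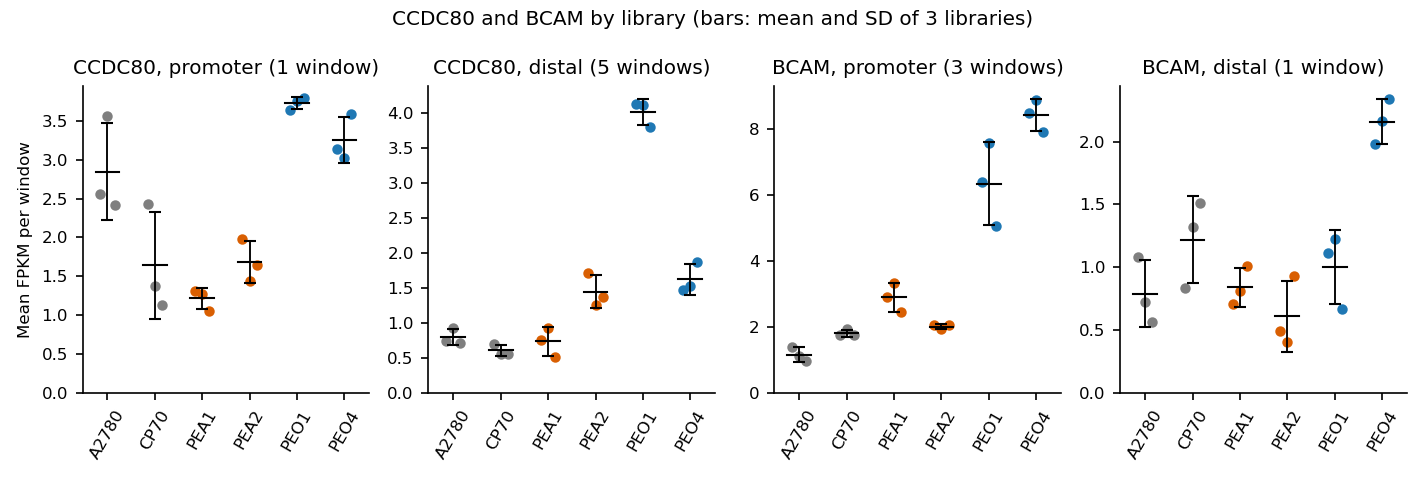
The mean FPKM per window of CCDC80 and BCAM is plotted on the y axis for promoter and distal windows in each of the 18 libraries (points), with the mean and SD of the 3 libraries of each line (bars). The CCDC80 distal windows stand near 4 FPKM in PEO1 (mean 4.01) and at 1.62 FPKM or below in the means of the other lines, and the BCAM promoter is highest in PEO4 (mean 8.41) and PEO1 (mean 6.33).

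The fibrillar collagens, which assemble into the tensile fibres of the matrix, had few windows. COL3A1 had none, COL1A1 and COL11A1 had only distal windows and COL1A2 only a promoter window. None of the members tested at promoter windows (3 in CP70, 1 in PEA2 and 2 in PEO4) was called, with log2FC between -0.37 (COL5A1 in CP70) and 0.74 (COL5A2 in CP70). At distal windows COL1A1, the main chain of type I collagen, had 4.57, 4.86 and 3.72 FPKM in PEA1 and 1.84, 1.71 and 1.60 FPKM in PEA2. The PEA2 libraries were all lower, with a log2FC of -1.30 (SE 0.183, limma adjusted p = 5.62e-06, median-centred -1.57), and the value was -0.25 without the surrounding 5 Mb. COL5A1 and COL5A2, the chains of type V collagen, had distal log2FC of -0.31 to 0.29 and were not called.

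COL11A1, a minor fibrillar collagen, fell in PEA2 at 1 window and in PEO4 over its 4 distal windows. The window chr1:103572000-103573000, in intron 1 and 1.6 kb from the start, had 2.02, 1.99 and 1.20 FPKM in PEA1 and 0.440, 0.231 and 0.355 FPKM in PEA2. The lines did not overlap, with a log2FC of -2.05 (SE 0.314, limma adjusted p = 3.44e-10, median-centred -2.42), which was -1.86 without PEA2 replicate 2, so that the call was lost. In PEO4 the distal windows had a log2FC of -1.06 (limma adjusted p = 7.39e-05), which was -0.80 when median-centred and -0.29 without the surrounding 5 Mb, neither of them called.

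Among the basement membrane and network collagens, 2 of 3 members tested were lower in PEO4 at promoter windows and 2 of 2 at distal windows, against 7.45% and 16.8% of all genes, while none was called in the other pairs. COL4A1 and COL4A2 encode the chains of the type IV network, and COL8A1 a short-chain network collagen. The COL4A2 promoter had 2.73, 3.14 and 3.68 FPKM in PEO1 and 1.05, 1.06 and 1.35 FPKM in PEO4. PEO4 was below PEO1 throughout, with a log2FC of -1.39 (SE 0.210, limma adjusted p = 1.05e-07, median-centred -1.36). COL4A1, which shares that promoter window and is not independent of it, also had -1.39 (limma adjusted p = 4.05e-07). Without the surrounding 5 Mb both were at -0.84, under the size required. In the PEA pair the genes had log2FC of 0.10 (95% interval -0.31 to 0.51) and -0.02 (-0.42 to 0.39) at promoter windows. COL8A1 at its 3 distal windows had 2.63, 3.58 and 3.86 FPKM in PEO1 and 1.008, 1.04 and 0.731 FPKM in PEO4, with no overlap and a log2FC of -1.75 (SE 0.184, limma adjusted p = 3.97e-05, median-centred -1.49).

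Distal windows of COL4A2 moved in opposite directions within the gene in PEA2. The window chr13:111013200-111014200, in intron 4, had 2.21, 2.43 and 1.97 FPKM in PEA1 and 0.275, 0.405 and 0.488 FPKM in PEA2. It was lower in every PEA2 library, with a log2FC of -2.25 (SE 0.288, limma adjusted p = 4.40e-14), and of -2.99 without the surrounding 5 Mb. A window 192.7 kb from the start, at chr13:111151800-111152800, was higher with a log2FC of 2.59, and one at chr13:110979000-110980000 was lower with -2.07. In PEO4 a further window, chr13:111049200-111050200, was lower with a log2FC of -2.498. Over the 17 distal windows together the log2FC was 0.68 in PEA2, which was not called, and -1.10 in PEO4 (limma adjusted p = 1.70e-04), which was. The latter was -0.84 when median-centred and -0.55 without the surrounding 5 Mb, neither of them called.

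Type VI collagen, a beaded-filament collagen found around cells, rose in PEO4, and its COL6A2 chain fell in PEA2. Of the 4 members of this group, COL12A1 included, 2 of 3 tested rose at promoter windows in PEO4 and 2 of 4 at distal windows, against 4.8% and 6.25% of all genes. The COL6A2 promoter window, chr21:47517300-47518300, had 0.607, 0.262 and 0.334 FPKM in PEO1 and 2.85, 3.36 and 2.44 FPKM in PEO4. PEO1 stood below every other line, with a log2FC in PEO4 of 2.62 (SE 0.292, limma adjusted p = 3.33e-11), of 2.65 when median-centred and of 1.67 without the surrounding 5 Mb. The same window had 4.01, 2.93 and 4.08 FPKM in PEA1 and 1.59, 1.85 and 1.60 FPKM in PEA2, a log2FC of -1.07 (limma adjusted p = 1.71e-06, median-centred -0.85). Without PEA1 replicate 3 it was -0.99 and the call was lost. The sequence of that promoter is the GC-rich stretch given above, with its TATA box between GC boxes close to the start.

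The neighbouring window in intron 1 of COL6A2, chr21:47518200-47519200, overlaps the promoter window at its edge. It had 0, 0.436 and 0.223 FPKM in PEO1, where the first library held 0 reads and 3 reads would be worth up to 0.304 FPKM, and 1.86, 2.30 and 1.79 FPKM in PEO4. Its log2FC was 3.0 (SE 0.455, limma adjusted p = 4.05e-07, median-centred 3.35). In the PEA pair it went from 3.27, 2.49 and 2.69 FPKM in PEA1 to 0.824, 1.04 and 1.07 FPKM in PEA2, and the gene's distal value, from this window alone, was called at -1.44 (limma adjusted p = 1.36e-06). COL6A1, the chain next to COL6A2 on chromosome 21, had 1.52, 2.79 and 1.56 FPKM at its promoter in PEO1 and 5.47, 5.76 and 5.23 FPKM in PEO4. These did not overlap, with a log2FC of 1.495 (SE 0.176, limma adjusted p = 1.63e-10), of 1.52 when median-centred and of 0.54 without the 5 Mb around it, which shifted by 0.95. The distal log2FC of COL6A1 was 1.48 (limma adjusted p = 1.99e-03), and 0.53 without the surrounding 5 Mb. COL6A3 lies on another chromosome, had only distal windows and was at 0.13 in PEO4.

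COL12A1, a collagen that coats fibrils, was 1 of 2 members called at promoter windows in the A2780 pair. It had 1.07, 0.935 and 0.876 FPKM in A2780 and 4.74, 2.36 and 3.31 FPKM in CP70. Every CP70 library lay above every A2780 library, with a log2FC of 1.70 (SE 0.243, limma adjusted p = 5.97e-10, median-centred 1.11). Without the surrounding 5 Mb the COL12A1 value was 0.76, under the size required. Its window chr6:75828600-75829600, in exon 45 and 86.7 kb from the start, had 0.160, 0.405 and 0.0959 FPKM in PEA1 and 2.36, 1.73 and 2.35 FPKM in PEA2. No library of the other 5 lines passed 0.480 FPKM there, and the window is in the table through PEA2 alone, which favours such a difference. The log2FC was 2.92 (SE 0.328, limma adjusted p = 7.47e-18, median-centred 2.55, 1.38 without the surrounding 5 Mb). The 5 distal windows together had a log2FC of 1.33 in PEA2 (limma adjusted p = 3.66e-05), which was -0.20 without the surrounding 5 Mb.

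Among the laminins, LAMA3 and LAMB3, 2 chains of the laminin that anchors epithelial cells, rose in PEA2, and LAMA5, a chain of most adult basement membranes, rose in PEO4. With BCAM, 1 of 7 members rose at promoter windows in each of these pairs, against 7.44% of all genes in PEA2 and 4.8% in PEO4. At distal windows 2 of 4 rose in PEA2 and 2 of 5 in PEO4, against 23.3% and 6.25% of all genes. At promoter windows 2 of 8 epithelial markers were higher in PEA2 (CDH1 by 1.21 and MUC16 by 1.35 on the log2 scale), against 7.44% of all genes. Of 5 mesenchymal markers 2 were lower there (VIM with -2.67 and ZEB1 with -1.23), against 11.7%. In PEO4 0 of 8 epithelial markers were called at promoter windows, and 1 of 5 mesenchymal markers was lower (PDGFRA), against 7.45%. At distal windows in PEA2 1 of 5 epithelial markers was higher (CDH1) and 2 of 6 mesenchymal markers lower (VIM and ZEB1), against 23.3% and 8.43%. In PEO4 1 of 8 (EPCAM) and 1 of 6 (CDH2) were lower there, against 16.8%. The part of these markers in the change of the laminin genes was not tested. LAMA3 was called at 8 distal windows downstream of its canonical start, with log2FC of 2.03 to 3.17. The window chr18:21365100-21366100, in intron 12, had 0.224, 0.467 and 0.192 FPKM in PEA1 and 4.56, 2.66 and 2.93 FPKM in PEA2. All libraries of the other 5 lines were at or below 0.669 FPKM, so that this window too is in the table through PEA2 alone. Its log2FC was 3.17 (SE 0.279, limma adjusted p = 3.19e-28), 2.80 when median-centred and 1.54 without the surrounding 5 Mb. The LAMA3 promoter had 2.03, 2.03 and 1.45 FPKM in PEA1 and 5.17, 3.99 and 3.93 FPKM in PEA2, with no overlap and a log2FC of 1.21 (limma adjusted p = 7.37e-08).

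The surroundings of LAMA3 moved with it. The windows within the same 5 Mb shifted by 1.63 in PEA2, and without that shift the 8 windows had log2FC of 0.40 to 1.54, the 20 distal windows together 0.06 in place of 1.69, and the promoter -0.42 in place of 1.21, a turn of direction. LAMB3 differed in this respect, since its 5 Mb shifted by 0.163. Its 9 distal windows had 0.972, 1.18 and 0.815 FPKM in PEA1 and 3.57, 2.43 and 3.24 FPKM in PEA2, with no overlap, a log2FC of 1.54 (SE 0.193, limma adjusted p = 1.28e-06) and a value of 1.38 without the surrounding 5 Mb. Its 3 called windows lie next to each other at chr1:209828700-209831500, upstream of the gene, with log2FC of 2.89, 2.16 and 2.49. They had 1.99 to 2.73 without the surrounding 5 Mb.

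LAMA5 had, with LAMC1, the most open promoter of the members in PEO4. Its values were 4.70, 4.97 and 4.63 FPKM in PEO1 and 11.0, 11.9 and 9.94 FPKM in PEO4. The lines did not overlap, with a log2FC of 1.18 (SE 0.119, limma adjusted p = 1.89e-12, median-centred 1.21, 0.40 without the surrounding 5 Mb, which shifted by 0.778). Its 44 distal windows together had a log2FC of 1.07 (limma adjusted p = 2.03e-05, median-centred 1.33), and 0.29 without the surrounding 5 Mb, where the call was lost. The window chr20:60929100-60930100, in intron 2, had 0.202, 0.436 and 0.557 FPKM in PEO1 and 1.86, 1.87 and 2.09 FPKM in PEO4. PEO1 was below every library of the other lines, with a log2FC of 2.10 (SE 0.343, limma adjusted p = 1.48e-06, median-centred 2.45), which was 1.78 without PEO1 replicate 1, below the size required. In CP70 and PEA2 the LAMA5 promoter had log2FC of 0.72 and 0.72, not called.

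LAMA4 and LAMB1 each had 1 window called in PEO4, in opposite directions. The LAMA4 window, chr6:112510800-112511800 in intron 6, had 0.304, 0.262 and 0.446 FPKM in PEO1 and 1.80, 2.06 and 2.09 FPKM in PEO4. All other lines were at or below 0.455 FPKM, and the window is in the table through PEO4 alone, which favours such a difference. The log2FC was 2.27 (SE 0.338, limma adjusted p = 2.80e-07, median-centred 2.62). The LAMB1 window, chr7:107579700-107580700 in intron 25, had 3.54, 3.58 and 3.68 FPKM in PEO1 and 0.465, 0.432 and 0.299 FPKM in PEO4. PEO1, through which alone the window is in the table, stood apart from the other 5 lines at 0.220 to 0.575 FPKM, and the log2FC was -2.91 (SE 0.274, limma adjusted p = 1.20e-11, median-centred -2.56, -2.32 without the surrounding 5 Mb). At promoter windows LAMA4, LAMB1, LAMB3 and LAMC1 were not called in any pair in which they were tested, with log2FC of -0.50 to 0.86.

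**Figure D3:**
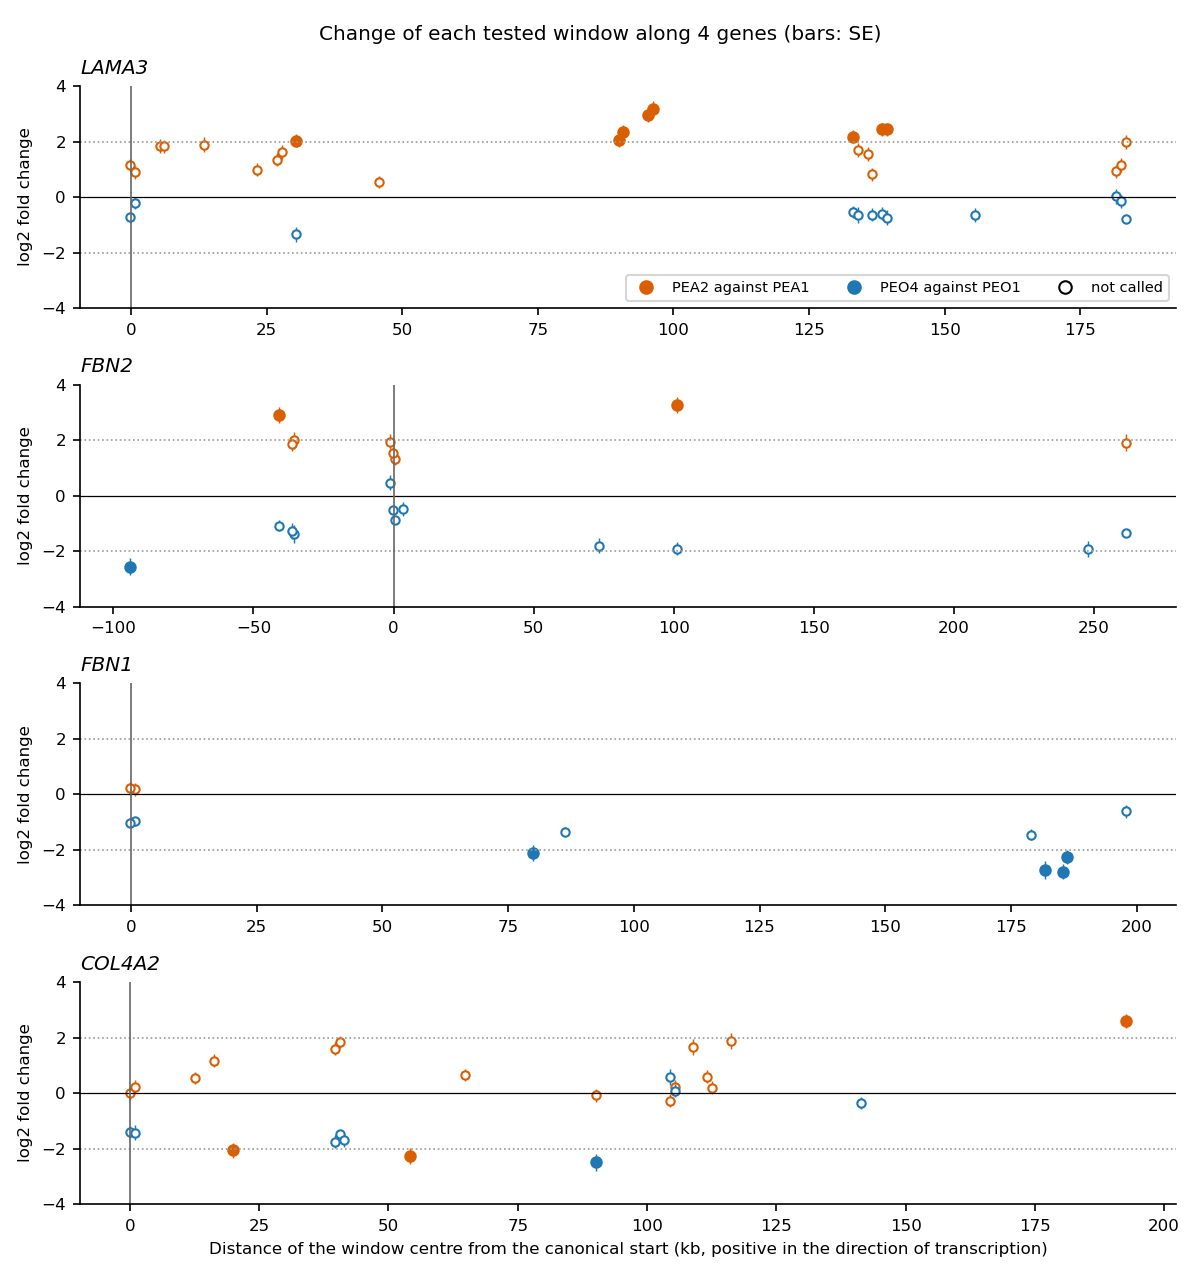
The log2FC of every tested window (y axis, bars are the SE) is plotted against the distance of its centre from the canonical start in kb (x axis, positive in the direction of transcription) for LAMA3, FBN2, FBN1 and COL4A2, in orange for PEA2 against PEA1 and in blue for PEO4 against PEO1, with called windows filled. In LAMA3 all windows tested in the PEA pair lie above 0 with 8 called, while in FBN1 the 4 windows called in PEO4 lie between -2.79 and -2.12 and far from the start.

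Of the glycoproteins and proteoglycans, SPARC, VCAN and FN1 rose in PEA2, the last at distal windows only, and none was called higher in PEO4. At distal windows 2 of 6 members fell in PEO4, CCDC80 and LUM, against 16.8% of all genes. SPARC, a collagen-binding glycoprotein, had the only promoter window of a member called at the larger threshold in the PEA pair. This window, chr5:151065900-151066900, had 0.641, 0.779 and 0.719 FPKM in PEA1 and 4.67, 2.89 and 4.93 FPKM in PEA2. The lines did not overlap, with a log2FC of 2.36 (SE 0.241, limma adjusted p = 2.98e-21, median-centred 1.99, 1.75 without the surrounding 5 Mb). Over both promoter windows of SPARC the log2FC was 1.87 in PEA2 (limma adjusted p = 6.04e-15), -0.87 in CP70 (limma adjusted p = 2.41e-03, not called) and -0.07 in PEO4, where the level was 5.0, 5.11 and 4.96 FPKM against 5.21, 5.06 and 5.63 FPKM in PEO1.

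FN1, which encodes fibronectin, was called in PEA2 at distal windows and, with the values as deposited, not at its promoter. Its 9 distal windows had 0.851, 0.723 and 0.634 FPKM in PEA1 and 3.21, 2.60 and 2.47 FPKM in PEA2. PEA2 was above every other line, with a log2FC of 1.77 (SE 0.181, limma adjusted p = 1.12e-07, median-centred 1.501, 0.83 without the surrounding 5 Mb). The promoter had 4.26, 4.52 and 3.45 FPKM in PEA1 and 3.79, 2.43 and 3.195 FPKM in PEA2, overlapping, with a log2FC of -0.38 (SE 0.213, limma adjusted p = 0.119). Without the surrounding 5 Mb the promoter value was -1.33. VCAN, the large proteoglycan versican, was called at 1.07 (promoter) and 1.33 (distal) in PEA2, which became -0.74 and -0.48 without the surrounding 5 Mb, where the shift was 1.80. LUM, the small proteoglycan lumican, had 1 distal window with a log2FC of -1.26 in PEO4 (limma adjusted p = 4.83e-03), which was -0.996 when median-centred and -0.36 without the surrounding 5 Mb and then no longer called. TNC, tenascin-C, was not called, with -0.18 to 0.50.

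The fibrillins, which build the microfibrils of elastic tissue, changed in both patient-derived pairs. With the lysyl oxidases, 1 of 5 members rose and 1 fell at promoter windows in PEA2, and 1 fell in PEO4. Of all genes 7.44% rose and 11.7% fell there in PEA2 and 7.45% fell in PEO4. At distal windows 1 of 3 rose and 1 fell in PEA2 and 2 of 4 fell in PEO4, against 23.3%, 8.43% and 16.8% of all genes. FBN2 rose in PEA2 and fell in PEO4. Its window chr5:127772100-127773100, in intron 7 and 101.3 kb from the start, had 0.385, 0.343 and 0.0959 FPKM in PEA1 and 4.95, 1.91 and 3.59 FPKM in PEA2, behind which stood 2 to 12 reads per library in PEA1 and 33 to 90 in PEA2. The lines did not overlap, with a log2FC of 3.27 (SE 0.285, limma adjusted p = 8.99e-29, median-centred 2.90, 2.22 without the surrounding 5 Mb). The same window had 2.83, 3.40 and 3.90 FPKM in PEO1 and 0.640, 0.864 and 0.996 FPKM in PEO4, so PEA2 and PEO1 were high and the other 4 lines low. The FBN2 promoter had 1.31, 1.82 and 1.25 FPKM in PEA1 and 4.23, 3.82 and 4.94 FPKM in PEA2, with no overlap and a log2FC of 1.52 (SE 0.208, limma adjusted p = 6.50e-12), which was 0.47 without the surrounding 5 Mb.

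In PEO4 the FBN2 window chr5:127967400-127968400, inside the annotated span and 94.0 kb upstream of the canonical start, had 0.872, 0.624 and 0.249 FPKM against 3.34, 3.49 and 3.90 FPKM in PEO1. Its log2FC was -2.55 (SE 0.290, limma adjusted p = 1.05e-09, median-centred -2.21). All 9 distal windows of FBN2 together had 3.34, 3.19 and 3.58 FPKM in PEO1 and 1.23, 1.02 and 1.28 FPKM in PEO4, a log2FC of -1.44 (limma adjusted p = 1.37e-05), and 1.87 in PEA2 (limma adjusted p = 1.71e-06). Without the surrounding 5 Mb these values were -0.82 in PEO4 and 0.82 in PEA2, under the size required, so both calls were lost. FBN1 fell in PEO4 at 4 distal windows. That at chr15:48752100-48753100, in intron 42, had 4.05, 4.28 and 3.23 FPKM in PEO1 and 0.581, 0.576 and 0.299 FPKM in PEO4. PEO1 was above every library of the other lines, with a log2FC of -2.79 (SE 0.270, limma adjusted p = 2.38e-11, median-centred -2.44, -1.54 without the surrounding 5 Mb).

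The 8 distal windows of FBN1 together had 3.19, 3.53 and 3.33 FPKM in PEO1 and 1.12, 1.008 and 1.05 FPKM in PEO4, a log2FC of -1.57 (SE 0.114, limma adjusted p = 5.63e-06, median-centred -1.31), which was -0.33 without the surrounding 5 Mb, where the shift was -1.25. The FBN1 promoter, at 4.45, 5.58 and 5.57 FPKM in PEO1 and 2.62, 2.16 and 2.79 FPKM in PEO4, had no overlap and a log2FC of -1.02 (limma adjusted p = 1.65e-07). That call was lost with median centring (-0.99) and without PEO1 replicate 2, PEO1 replicate 3 or PEO4 replicate 2 (-0.96, -0.96 and -0.91), and the value turned to 0.23 without the surrounding 5 Mb.

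Among the lysyl oxidases, which cross-link collagen and elastin, LOXL2 fell in PEA2. Its promoter had 4.55, 3.80 and 2.93 FPKM in PEA1 and 1.59, 0.983 and 1.15 FPKM in PEA2, with no overlap and a log2FC of -1.53 (SE 0.208, limma adjusted p = 5.20e-12, median-centred -1.30, -0.72 without the surrounding 5 Mb). A window in intron 4, chr8:23193000-23194000 and 68.1 kb from the start, had 4.04, 3.74 and 2.73 FPKM in PEA1 and 0.165, 0.405 and 0.355 FPKM in PEA2. PEA1 was above all other lines, whose libraries were at or below 1.06 FPKM. The window is thus in the table through PEA1 alone, which favours such a difference. Its log2FC was -3.18 (SE 0.274, limma adjusted p = 2.11e-29, median-centred -3.55, -2.37 without the surrounding 5 Mb). The 9 distal windows of LOXL2 together had -1.25 (limma adjusted p = 7.19e-06), which was -0.44 without the surrounding 5 Mb and no longer called. LOXL1 was the other member called at promoter windows in the A2780 pair, with 1.12, 0.901 and 0.711 FPKM in A2780 and 1.44, 2.28 and 2.14 FPKM in CP70. The libraries did not overlap and the log2FC was 1.02 (SE 0.236, limma adjusted p = 3.51e-04), but 0.43 when median-centred, and it was lost without A2780 replicate 3, CP70 replicate 2 or CP70 replicate 3 (0.87 to 0.94). LOX, tested at promoter windows only, had log2FC of -0.13, 0.27 and -0.47 in the 3 pairs and was not called.

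**Figure D4:**
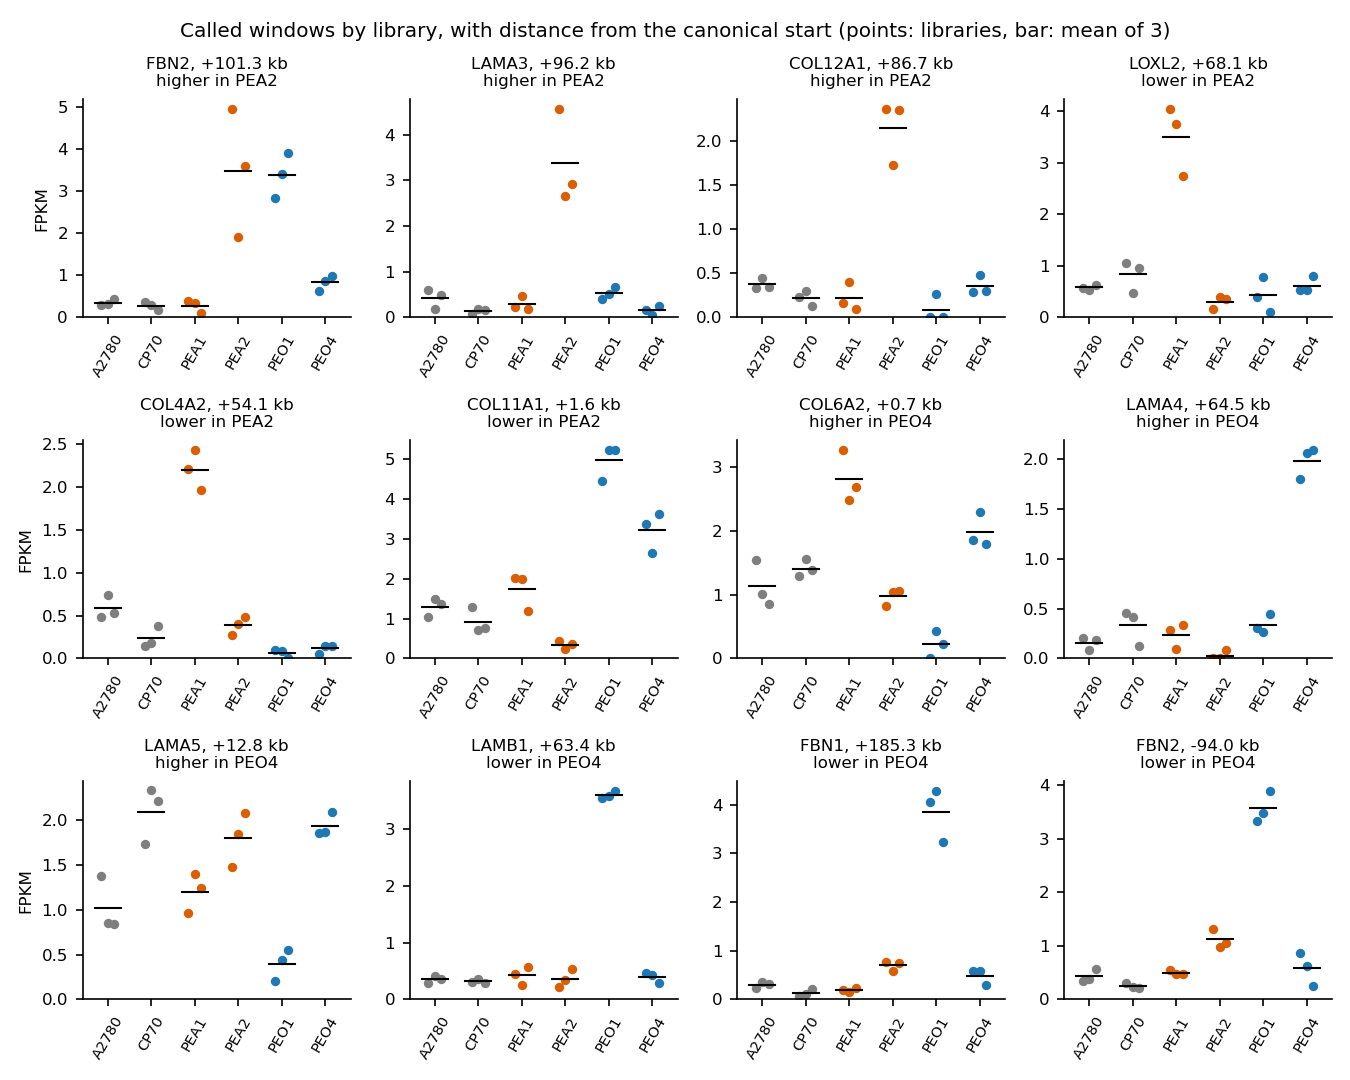
The FPKM of the 12 distal windows with the largest called changes, at most 1 per gene, pair and direction, (3 per pair and direction) is plotted on the y axis for each of the 18 libraries (points) and the mean of the 3 libraries of a line (bar), with the distance of the window from the canonical start in each title. For LAMA3, COL12A1, LAMA4 and LAMB1 a single line stands apart from the other 5, PEA2 for the first pair of genes, PEO4 for LAMA4 and PEO1 for LAMB1, and each of these 4 windows met the minimum of the table in that line alone, while FBN2 at 101.3 kb is high in both PEA2 and PEO1. The LOXL2 window met that minimum in PEA1 alone.

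The next question was whether the PEA and PEO pairs, which share no library, changed differently at the matrix genes. The difference of the log2FC (PEA pair minus PEO pair) was tested with limma over their 12 libraries, with the same thresholds as for single windows. It was higher in the PEA pair at 56 of 228 windows (24.6%), in 14 genes, and lower at 7 (3.07%), in 3 genes, against 22% and 4.56% of all 81671 windows. The largest differences were 5.17 for the FBN2 window in intron 7 (SE 0.423, limma adjusted p = 1.65e-14) and -4.44 for the COL6A2 window in intron 1 (SE 0.481, limma adjusted p = 5.56e-11). The balance rested on the scaling: with median centring 29 windows were higher and 20 lower, and without the 5 Mb surroundings 12 and 10. The median difference over all windows was 0.58 with the values as deposited.

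Resistant and sensitive lines were then compared over the 3 pairs, with the 6 line means as the units and the pair as a block. Limma called 0 of the 26 members at promoter windows (0% of all 14024 genes), and 0 of the 26 had an unadjusted p under 0.05, against 170 of all 14024 genes. LAMA5 came first, with a log2FC of 0.87 (limma adjusted p = 1), higher in the resistant line of all 3 pairs with the values as deposited. Without the surrounding 5 Mb its promoter was at -0.15 in CP70, -0.01 in PEA2 and 0.40 in PEO4. The direction was the same in 3 pairs for 5 of the 26 members and for 15% of all genes. With 3 pairs a member would need a large and even change to be called.

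The order of the 6 lines was read from the mean level of each gene on the FPKM scale, which is not adjusted for the share of reads in windows. All 26 members fitted at promoter windows and all 27 at distal windows differed among the lines (F test of limma, adjusted p below 0.05), as did 99.7% of all genes at promoter windows and 99.7% at distal windows. PEO1 was highest at 14 of 26 promoters (46.6% of all genes) and at 13 of 27 genes for distal windows (46.7% of all genes). PEA2 was highest at the distal windows of 6 of 27 genes (14.3% of all genes), FN1 among them. A2780 was lowest at 8 promoters and CP70 at 8, where 52.5% and 7.34% of all genes had these lines lowest. Lines next to each other in the order differed in 47 of 130 comparisons at promoters and in 64 of 135 at distal windows.

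For the CCDC80 promoter the order was PEO1, PEO4, A2780, PEA2, CP70 and PEA1, with means of 3.73, 3.25, 2.85, 1.69, 1.64 and 1.22 FPKM. Of its neighbours only A2780 and PEA2 differed (limma adjusted p = 1.31e-03). At its distal windows PEO1 (4.01 ± 0.188 FPKM, SD, n = 3) exceeded PEO4 (1.62 ± 0.220 FPKM), and PEO4 did not differ from PEA2 (1.45 ± 0.241 FPKM, limma adjusted p = 0.428). For the BCAM promoter the order was PEO4, PEO1, PEA1, PEA2, CP70 and A2780, with means of 8.41, 6.33, 2.89, 2.01, 1.81 and 1.16 FPKM, and only PEA2 and CP70 of the neighbours did not differ (limma adjusted p = 0.501). The SPARC promoter had 5.30 ± 0.294 FPKM in PEO1, 5.02 ± 0.0798 in PEO4, 2.64 ± 0.639 in PEA2 and 0.637 ± 0.0806 in PEA1, where it was lowest.

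The windows in the 5 Mb around the members named here shifted as well. These shifts are medians of the 5 Mb bin. They include the member's own windows and the median shift of all windows, 0.31 in PEA2 and -0.30 in PEO4. In PEA2 the windows in the same 5 Mb as a member shifted by 1.80 at VCAN, 1.63 at LAMA3, 1.54 at COL12A1, 1.05 at FBN2 and 0.948 at FN1, and by -1.05 at COL1A1 and -1.02 at BCAM. In PEO4 the shift was 0.95 at COL6A1 and COL6A2, 0.778 at LAMA5 and -1.25 at FBN1. With this removed in each library, the 20 windows called higher in PEA2 kept their sign, with values from 0.40 to 2.73, 14 of them above 1, and 3 were still called. Of the 5 lower in PEA2 3 were still called, of the 5 higher in PEO4 2 and of the 9 lower in PEO4 1, all with their sign kept. The part that the surroundings had in the change of single windows was not tested.

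**Figure D5:**
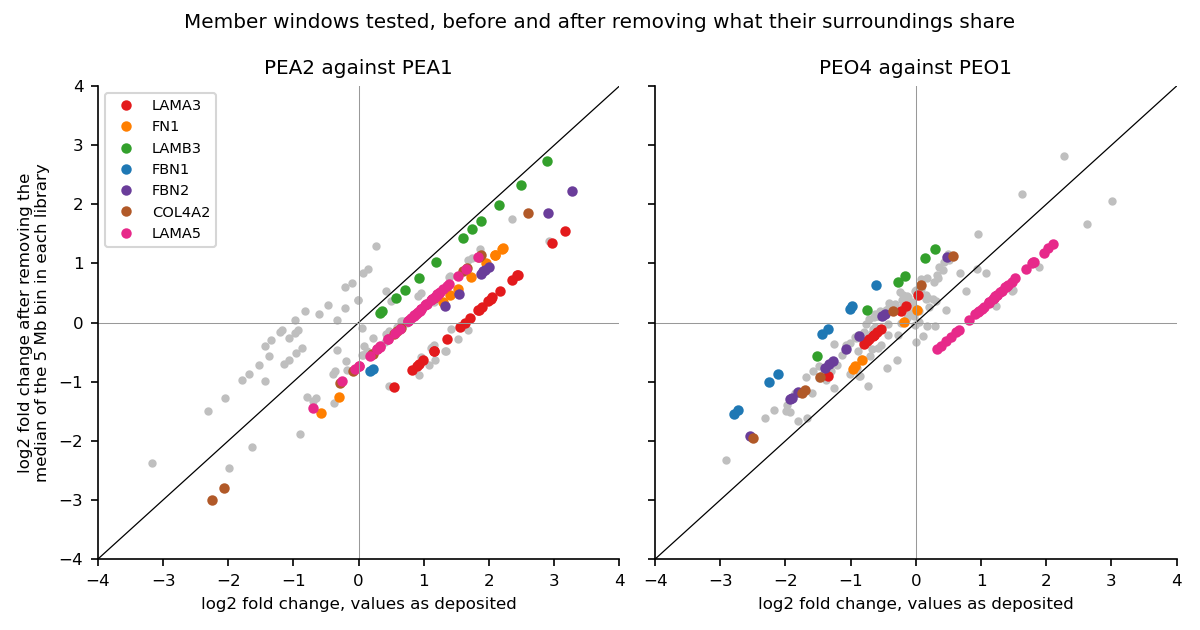
The log2FC of each member window tested, with the values as deposited (x axis) and after the median of the surrounding 5 Mb was removed in each library (y axis), is plotted for PEA2 against PEA1 and for PEO4 against PEO1, with 7 genes in colour and the other members in grey. Points on the diagonal did not shift with their surroundings: LAMB3 in PEA2 lies close to it (shift 0.163), while LAMA3 in PEA2 (shift 1.63) and FBN1 in PEO4 (shift -1.25) lie away from it.

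Other matrix genes were counted with the same gene fits from a list of 97 further collagens, basement membrane proteins, glycoproteins, modifying enzymes, proteases and receptors. At promoter windows 5 of 60 tested were higher and 2 lower in CP70 (7.28% and 0.397% of all genes), 6 of 70 higher and 10 lower in PEA2 (7.44% and 11.7% of all genes), and 6 of 66 higher and 4 lower in PEO4 (4.8% and 7.45% of all genes). At distal windows the counts were 6 of 33 higher and 0 lower in CP70 (9.77% and 0.488% of all genes), 14 of 65 higher and 3 lower in PEA2 (23.3% and 8.43% of all genes), and 8 of 72 higher and 8 lower in PEO4 (6.25% and 16.8% of all genes). Of 18 receptors for matrix proteins tested at distal windows in PEA2, 5 were higher (DDR2, ITGA5, ITGA6, ITGB8 and SDC1) and 1 lower (ITGB3), and at promoter windows 0 of 17 were higher and 3 lower (ITGA11, ITGA3 and ITGB3). EFEMP1, a fibulin, was higher in PEA2 at its promoter and lower there in PEO4, where its distal windows were higher. PLOD2, a lysyl hydroxylase that modifies collagen, was lower at its promoter in CP70 and PEO4. At distal windows PLOD2 was higher in PEA2 and lower in PEO4.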

How the data were processed

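ATAC-seq was analysed in 18 libraries, 3 for each of 6 lines. Per the labels and the study's methods, the authors aligned reads to hg19 with Bowtie2, removed duplicates with Picard, mitochondrial and blacklisted reads, counted reads in windows with featureCounts and made FPKM values with edgeR (versions not given in the sources used here). The deposited FPKM values are RPM divided by the window length in kb, and whole reads per window were recovered from their steps, with 1 read worth 0.0165 to 0.112 FPKM. Windows with a mean above 1 FPKM in a comparison were tested on log2(FPKM + 0.1), a scale that understates changes of low windows, with limma 3.58.1 (trend, R 4.3.3) and Benjamini-Hochberg adjustment over all windows or genes. Genes were fitted on the mean of their promoter or distal windows (GENCODE, GRCh37), and the 6 line means over 3 pairs. The recovered reads were tested with edgeR 4.0.16 as an alternative in the PEA and PEO pairs. That test was not run for A2780 and CP70. The fits were tested on simulated data. Members and lists were chosen with earlier results of these data known. CCDC80 and BCAM were always named, with the 3 largest called windows (1 per gene) and genes per pair and direction. Other windows and genes with values were added after their values were seen. Replicate numbers did not pair libraries (correlations of same-numbered deviations -0.41 to 0.04). Replicates differed by more than sampling noise, so none was counted as a repeat.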

Additional observations from a re-analysis of the deposited data

Results flagged for a closer look

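At 7 of the 12 windows with the largest changes, limma called a difference between the changes of the PEA and PEO pairs, tested directly over their 12 libraries. Of all 81671 windows tested, 22% were called higher in the PEA pair and 4.56% lower. At FBN2 (chr5:127772100-127773100) the difference, PEA change minus PEO change on the log2 scale, was 5.17 (SE 0.423, limma adjusted p = 1.65e-14), with the window higher in PEA2 than in PEA1 and lower in PEO4 than in PEO1 in every library. At the FBN2 window chr5:127967400-127968400 it was 3.58 (SE 0.416, limma adjusted p = 3.66e-10). At FBN1 (chr15:48752100-48753100) it was 4.22 (SE 0.444, limma adjusted p = 2.45e-11), at LAMA3 (chr18:21365100-21366100) 4.53 (SE 0.531, limma adjusted p = 4.39e-10) and at LAMB1 (chr7:107579700-107580700) 2.73 (SE 0.470, limma adjusted p = 1.94e-06). At COL6A2 (chr21:47518200-47519200) it was -4.44 (SE 0.481, limma adjusted p = 5.56e-11), with PEO4 above PEO1 and PEA2 below PEA1 in every library. At LOXL2 (chr8:23193000-23194000) it was -3.81 (SE 0.521, limma adjusted p = 1.84e-08). The windows were chosen for a large change in 1 of the pairs, so neither the number nor the size of these differences is independent of that choice. The LAMA3, LAMB1 and LOXL2 windows are also in the table through 1 line alone, which favours such a difference. The cause was not tested.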

How the results depend on the processing

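Of 616 values of 46 single results under alternatives, 536 kept their side of the threshold, 73 lost a call, 5 gained one and 2 called values turned: without the surrounding 5 Mb the LAMA3 promoter in PEA2 went to -0.42 and the FBN1 promoter in PEO4 to 0.23. Values that were not called also changed sign without the 5 Mb, those of the CCDC80 promoter to -0.22 in PEA2 and 0.29 in PEO4 and of BCAM to 0.53 (promoter, PEA2), -0.10 (promoter, CP70) and -0.13 (distal, CP70), the last also with median centring (-0.05). Outside the 46 single results, further called values in PEA2 turned without the 5 Mb. These were VCAN, to -0.74 (promoter) and -0.48 (distal), and COL12A1, to -0.205 (distal). With edgeR on recovered reads, under both size factors, the 12 named windows kept their calls. The counts of windows called in CP70, PEA2, PEO4 and for the difference of the PEA and PEO pairs (0, 25, 14 and 63) were 10, 106, 82 and 135 at thresholds of 1 and 0.05. With a pseudocount of 1 they were 0 in PEA2 and PEO4 and 20 for the difference. Without the 5 Mb surroundings they were 8, 4 and 22, with a minimum mean of 5 FPKM 0, 0 and 6, and with a GC correction 15, 8 and 30. Fewer windows are tested at 5 FPKM, and a larger pseudocount shrinks low values by construction. Genes called at promoter windows (2, 6 and 6) were 1, 3 and 3 with a pseudocount of 1 and 0, 0 and 1 at 5 FPKM. They were 4 in CP70 with the canonical start window alone, and 2 in PEO4 without the 5 Mb surroundings. Genes called at distal windows (0, 9 and 11) were 4 and 4 in PEA2 and PEO4 with a pseudocount of 1, 1 and 2 without the 5 Mb surroundings, and 0 and 0 at 5 FPKM. With median centring and with quantile normalization they were 1 in CP70 and 7 in PEO4. The cause of the other moves was not tested.

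Leaving out 1 library gave 0 to 1 windows in CP70 (1 without CP70 replicate 2), 21 to 30 in PEA2, 12 to 19 in PEO4 and 55 to 66 for the difference. Promoter genes ran from 1 to 3 in CP70, 5 to 8 in PEA2 and 5 to 6 in PEO4, and distal genes from 0 to 0, 8 to 10 and 9 to 12. The CP70 promoter count was 1 without A2780 replicate 3, CP70 replicate 2 or CP70 replicate 3, and 3 without CP70 replicate 1, where CCDC80 was called at -1.11. CCDC80 at distal windows was called in PEA2 without PEA1 replicate 2 (1.07). The replicate block changed none of the 46 calls, and in the PEO pair alone each library correlated best with its own number. In PEO1, where 1 read is worth 0.0873 to 0.112 FPKM, values under 0.5 FPKM rest on few reads.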
